A study of Homo sapiens with 6 samples.

Results

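This report concerns TRIM29 together with keratin, laminin, integrin and cadherin genes of basal epithelium in the line MDA-MB-231, which was established from a human breast cancer of the triple-negative kind. The 9 genes were chosen by symbol: TRIM29, KRT5, KRT17, LAMA3, LAMB3, ITGA6, ITGB4, TP63 and CDH3. The choice was made with earlier results of these arrays known, namely that TRIM29, KRT5 and LAMB3 were among the genes that rose, so the changes of those 3 are given as a description with no p-value. Of the 9 genes, 6 could be followed, each by 1 transcript cluster, a set of probes read together as one locus. KRT17, LAMA3 and TP63 had no cluster under their symbol or Entrez number in the annotation used here and were not analysed here. The 6 stand among 18417 genes with a single symbol, taken from 33297 transcript clusters.

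Affymetrix whole-transcript arrays gave RNA levels for 3 cultures exposed to 1 µM selamectin for 24 h and for 3 control cultures. The controls are untreated in their titles but had vehicle according to the protocol, so what they received is not settled. Selamectin belongs to the avermectins, a family of macrocyclic lactones used against parasites, and the series title frames it as an inhibitor of the SIN3 corepressor. Replicates are called independent without a statement of how the cultures were separated, and the p-values measure the spread between these arrays.

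The basal layer of a stratified or glandular epithelium rests on a basement membrane. Its cells carry a cytoskeleton of KRT5 with KRT14 or KRT17, and hold on to laminin-332, a trimer that holds the LAMA3 and LAMB3 chains, through the integrin of ITGA6 and ITGB4, which plectin and related proteins tie to keratin in the hemidesmosome. The transcription factor p63, encoded by TP63, maintains this cell state and drives many of its genes. CDH3 encodes P-cadherin, an adhesion protein of basal cells. TRIM29 is a tripartite motif protein without a RING domain that is abundant in basal epithelium.

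Values are log2 expression values, so a difference of 1 is a doubling. Probes of different genes respond differently, so a gene's level beside that of another gene or the array medians is a rough guide only. The array medians lay between 7.47 and 7.51. Array scanner files and detection calls were not used here, so it is not known which transcripts lay above background. Among genes high in this line, VIM had an untreated mean of 12.67, MSN of 12.60 and CD44 of 10.48. Among genes known to be low in it, PGR had 5.60, EPCAM 6.24 and CDH1 6.27, whereas ERBB3 at 8.51 and FOXA1 at 9.76 lay above the array medians. Of 8 fibroblast markers and 10 leukocyte and endothelial markers measured, none passed the limma test at an adjusted p of 0.05, where 4.69% of all genes did. At an unadjusted p under 0.05 there were 1 and 2, beside 19.9% of all genes. The mean of the log2 values over each list was also followed on each array. For the fibroblast list it spanned 6.53 to 6.62 on the untreated arrays and 6.62 to 6.68 on the selamectin arrays, and for the other list 6.43 to 6.58 and 6.45 to 6.56. The leukocyte marker PTPRC stood at 4.84 untreated and 4.83 with selamectin, the lowest untreated mean of its list. Untreated means on that list reached 9.52 for CDH5 and 10.07 for CD68. On the fibroblast list they ran from 5.19 to 9.05, the latter for COL1A1. Thus some of these markers lay above the array medians. The smallest p-values on these lists were those of the fibroblast genes DCN and COL3A1 and of the endothelial genes VWF and CDH5, of which CDH5 had the largest difference, -0.59 (limma adjusted p = 0.067). Their part in the results below was not tested. In bulk RNA, fewer cells with a transcript and less transcript per cell cannot be told apart.

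The promoter windows below are those of KRT5 and LAMB3, which were higher together after selamectin, and of ITGA6, which was not. The other measured members, TRIM29, ITGB4 and CDH3, had no window in the promoter sequences used here and could not be searched. The windows shown are the 250 bases before the outermost RefSeq start of each gene, read 5′ to 3′ on the strand of the gene. Capitals mark any match, on either strand, to 6 motifs: TGANTCA of AP-1, GGGCGG of the GC box, GCCNNNGGC of AP-2, CACGTG of MAX-type factors, TATAAA, and the half-site of the p53 family, to which p63 belongs. No 2 marked matches overlapped in these windows.
KRT5, GRCh38.p14 chr12:52520395-52520644, minus strand: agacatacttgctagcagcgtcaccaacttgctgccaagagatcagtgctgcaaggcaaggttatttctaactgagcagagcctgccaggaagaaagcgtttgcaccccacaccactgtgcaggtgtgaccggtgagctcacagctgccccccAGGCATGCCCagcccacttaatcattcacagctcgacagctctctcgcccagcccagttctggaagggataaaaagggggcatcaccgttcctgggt
LAMB3, GRCh38.p14 chr1:209652426-209652675, minus strand: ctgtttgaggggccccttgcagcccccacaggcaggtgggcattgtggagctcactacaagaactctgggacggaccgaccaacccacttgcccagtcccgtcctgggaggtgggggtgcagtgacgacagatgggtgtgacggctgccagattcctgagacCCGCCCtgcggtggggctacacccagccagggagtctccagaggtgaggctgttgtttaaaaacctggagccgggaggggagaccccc
ITGA6, GRCh38.p14 chr2:172427086-172427335, plus strand: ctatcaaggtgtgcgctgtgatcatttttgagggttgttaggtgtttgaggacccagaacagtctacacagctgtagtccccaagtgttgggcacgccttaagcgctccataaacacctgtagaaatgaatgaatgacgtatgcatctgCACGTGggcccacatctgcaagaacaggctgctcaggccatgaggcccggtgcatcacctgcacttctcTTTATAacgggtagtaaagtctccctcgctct

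The KRT5 window held 1 of the motifs, a p53 family half-site from -97 to -88, counted in bases from the start. Such a half-site was present in 5.57% of all 35116 promoter windows of that length. The LAMB3 window held 1 GC box from -88 to -83, a motif found in 42.6% of windows. The ITGA6 window held the MAX-type motif from -101 to -96 and TATAAA, on the other strand, from -32 to -27, which occurred in 6.34% and 10.7% of windows. ITGA6 has a second start site in the table, whose window held 3 GC boxes, from -217 to -212, -106 to -101 and -55 to -50, and an AP-2 match from -92 to -84. LAMB3 has 3 start sites in the table, and the windows of the other two held a GC box from -184 to -179 in one, and the AP-1 motif from -67 to -61 with a GC box from -52 to -47 in the other. The GC box was thus found at all LAMB3 starts and at 1 of those of ITGA6. The AP-1 motif occurred in 6.57% of windows and that of AP-2 in 19.8%. The KRT5 window and the LAMB3 windows thus shared none of the motifs searched. A match describes the letters only.

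TRIM29 was the member with the widest separation between the groups. Its log2 values were 8.67, 8.74 and 8.73 on the untreated arrays and 9.58, 9.86 and 9.82 on the selamectin arrays. All selamectin values lay above all untreated values, with selamectin array 1 the lowest of the treated ones. The means were 8.71 ± 0.04 and 9.75 ± 0.15 (SD, n = 3), a log2 change of 1.04 ± 0.10 SE or 2.05-fold. By size, this was number 4 among the 444 genes that rose. The change stayed between 0.99 and 1.13 over all alternative settings and left-out arrays, and TRIM29 passed the threshold in each of them.

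KRT5, the type II keratin that pairs with KRT14 in basal cells, was also higher on every selamectin array. It read 7.56, 7.58 and 7.54 on the untreated arrays against 8.05, 7.94 and 8.08 on the selamectin arrays. The untreated values agreed within an SD of 0.02, and the groups did not overlap. The mean went from 7.56 ± 0.02 to 8.03 ± 0.07 (SD, n = 3), a log2 change of 0.46 ± 0.09 SE or 1.38-fold. KRT5 dropped below the threshold without untreated array 1, without untreated array 3 and when all transcript clusters entered the fit. Its sequence is close to that of KRT6A, KRT6B and KRT6C, which were not analysed here, so the value may include their transcripts.

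LAMB3, the beta chain of laminin-332, read 7.63, 7.76 and 7.95 on the untreated arrays and 8.20, 8.28 and 8.35 on the selamectin arrays. The groups did not overlap, although untreated array 3 came close to selamectin array 1. The mean went from 7.78 ± 0.16 to 8.28 ± 0.08 (SD, n = 3), a log2 change of 0.50 ± 0.10 SE or 1.41-fold. The LAMB3 call was lost without untreated array 1, untreated array 2 or selamectin array 2, and when all transcript clusters entered the fit. With array weights, which give untreated array 3 a weight of 5.11 and the other arrays 0.45 to 1.22, the change was 0.36.

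The integrin pair that binds laminin-332 moved the other way in its means without passing. ITGB4 read 8.58, 8.54 and 8.67 untreated and 8.35, 8.10 and 8.31 with selamectin, so that all treated values lay below all untreated ones. Its mean went from 8.60 ± 0.07 to 8.25 ± 0.14 (SD, n = 3), a log2 change of -0.35 (95% interval -0.57 to -0.13, limma adjusted p = 0.074). ITGA6 read 9.37, 9.11 and 9.34 untreated and 9.18, 8.92 and 9.08 with selamectin. Its groups overlapped, because untreated array 2 lay below selamectin array 1. The mean of ITGA6 went from 9.28 ± 0.14 to 9.06 ± 0.13 (SD, n = 3), a log2 change of -0.22 with an interval from -0.45 to 0.02 (limma adjusted p = 0.30). With array weights both integrin genes passed as lower (limma adjusted p = 0.0068 for ITGB4 and 0.047 for ITGA6); at the same threshold, neither did in the other settings or with 1 array left out, and at an adjusted p of 0.10 ITGB4 passed.

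CDH3 showed no separation. It read 6.33, 6.37 and 6.26 untreated and 6.31, 6.50 and 6.28 with selamectin, with 2 treated values inside the untreated range. The means were 6.32 ± 0.05 and 6.36 ± 0.12 (SD, n = 3), and the log2 change was 0.04 with an interval from -0.14 to 0.22 (limma adjusted p = 0.80).

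**Figure D1:**
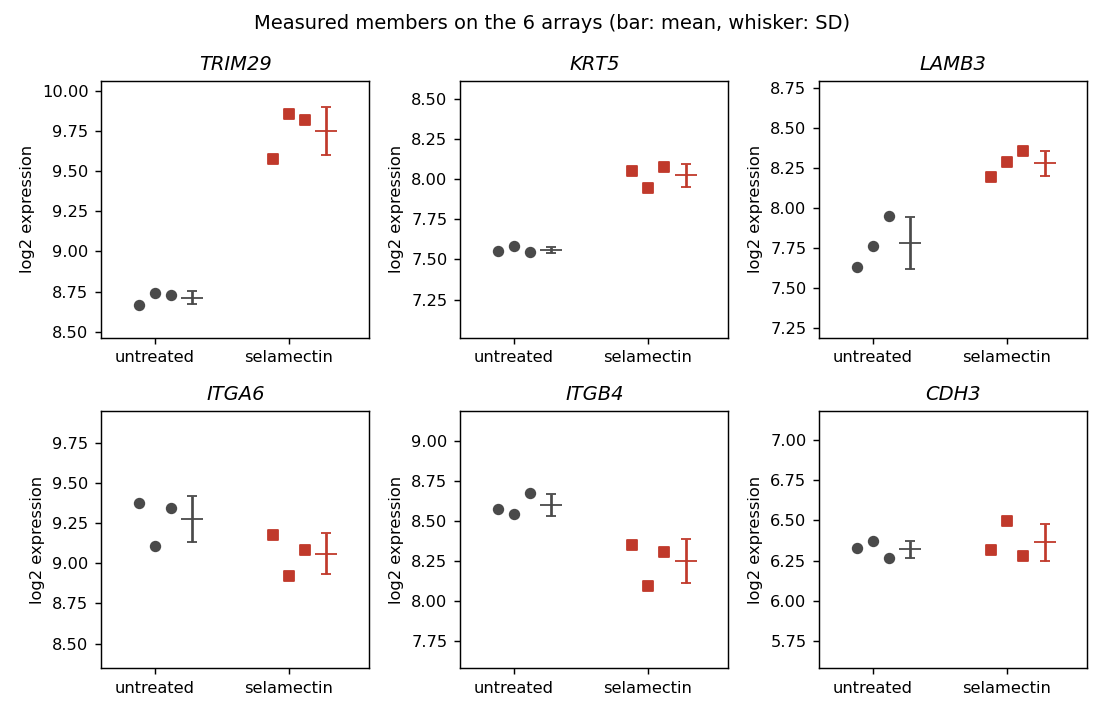
Log2 expression of the 6 measured members on each of the 3 untreated (grey circles) and 3 selamectin (red squares) arrays. Every panel spans the same number of log2 units, and the horizontal bar and whisker beside each group give its mean and SD. TRIM29, KRT5 and LAMB3 sit higher on all selamectin arrays, ITGB4 sits lower on all of them, and ITGA6 and CDH3 overlap.

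Of the 6 measured members, 3 rose past the threshold and none fell. Over all 18417 genes, 2.41% rose and 2.28% fell, together 4.69%. Since the members were proposed with those rises known, the count is a description. The groups did not overlap for 3 members on the higher side and 1 on the lower side, where 16.0% and 9.30% of all genes did so and 25.3% in either direction. The median log2 change of the 6 was 0.25, against 0.04 for all genes. Within groups the members varied about as much as other genes, with pooled SDs from 0.05 to 0.14 beside a median of 0.11.

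**Figure D2:**
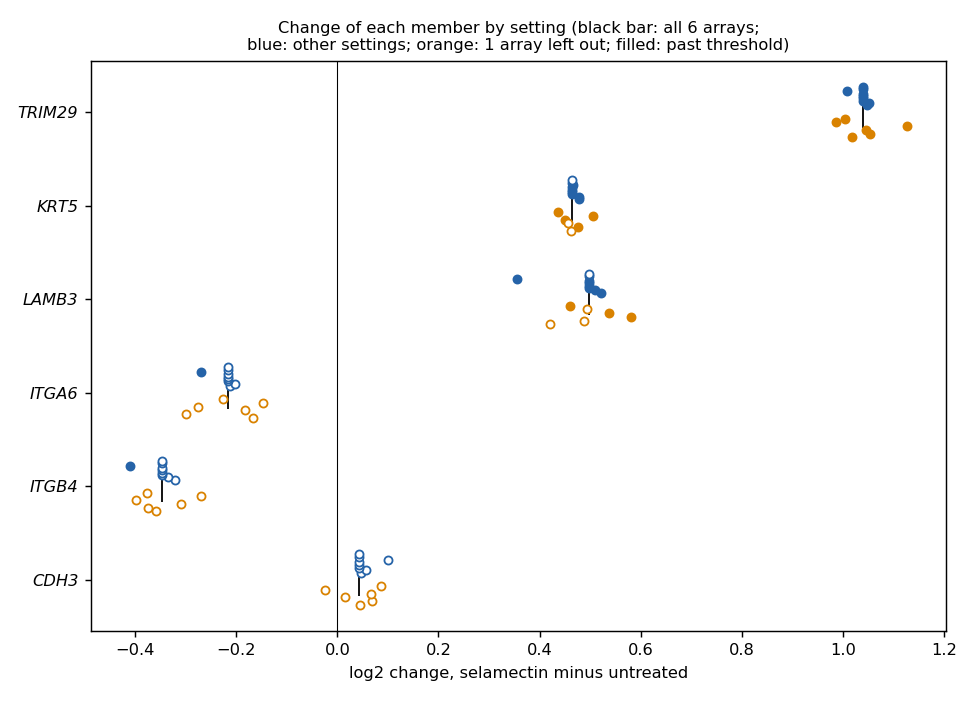
Log2 change of each measured member, selamectin minus untreated, with all 6 arrays (black bar), under the other settings that keep all arrays (blue) and with 1 array left out (orange). Filled points passed an adjusted p of 0.05 in limma and open points did not. TRIM29 passed throughout, KRT5 and LAMB3 in part of the settings, and ITGB4 and ITGA6 only with array weights.

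Several laminin chains outside laminin-332 fell while LAMB3 was higher. Of 8 such chains measured, LAMC1, LAMB1, LAMB2 and LAMA5 fell and none rose in limma, where 2.28% and 2.41% of all genes did. The median log2 change of the 8 was -0.33, beside 0.04 for all genes. The list was chosen with earlier results of these data known. LAMC1, the gamma chain of most laminins, read 11.95, 11.76 and 11.83 untreated and 11.32, 11.13 and 11.23 with selamectin, a log2 change of -0.62 ± 0.09 SE (limma adjusted p = 0.0049). LAMB1, the beta chain of laminin-111 and laminin-511, read 12.35, 12.25 and 12.35 against 11.88, 11.77 and 11.88, a change of -0.48 ± 0.07 SE (limma adjusted p = 0.0075). Neither gene's groups overlapped. LAMA5, the alpha chain of laminin-511, changed by -0.45 (limma adjusted p = 0.048), and LAMB2, the other widespread beta chain, by -0.38 (limma adjusted p = 0.039). Of the chains that did not pass, LAMC3 stood at -0.28, LAMA1 at -0.21, LAMA2 at 0.04 and LAMA4 at 0.12. LAMC1 and LAMB1 passed whichever array was left out, whereas LAMB2 lost its call without any one array and LAMA5 without any one array except selamectin array 3; with median-centred arrays 2 chains fell.

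Other parts of the basement membrane included genes that fell. Of 13 genes for basement membrane proteins, laminin processing and anchorage, 3 fell and none rose in limma, beside 2.28% and 2.41% of all genes. HSPG2, the heparan sulfate proteoglycan perlecan, read 10.43, 10.29 and 10.49 untreated and 9.38, 9.37 and 9.80 with selamectin, a log2 change of -0.88 ± 0.12 SE (limma adjusted p = 0.0050). All treated values were lower, with selamectin array 3 closest to the controls. The type IV collagen chains COL4A1 and COL4A2, which lie head to head at one locus, changed by -0.65 (limma adjusted p = 0.0085) and -0.39 (0.048). HSPG2 and COL4A1 passed whichever array was left out, and COL4A2 only without selamectin array 3. Without passing, AGRN, the proteoglycan agrin, stood at -0.45 (limma adjusted p = 0.064) and FERMT1, the integrin activator kindlin-1, at 0.27 (0.17). At an unadjusted p under 0.05 there were 7 of the 13, beside 19.9% of all genes. The groups did not overlap for 4 genes on the lower side and 1 on the higher, beside 9.30% and 16.0% of all genes. The median of the list was -0.04 and was unstable: it was -0.23 under the filter on dim genes, and ran from -0.17 without untreated array 2, through -0.11 without selamectin array 1, -0.08 without untreated array 1 and -0.02 without untreated array 3, to 0.02 without selamectin array 3.

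Among 9 laminin receptors and hemidesmosome genes besides the 2 member integrins, 1 fell and none rose, where 2.28% and 2.41% of all genes did. The gene that fell was BCAM, the Lutheran glycoprotein that binds the laminin alpha-5 chain. BCAM read 8.69, 8.81 and 8.77 untreated and 8.15, 8.29 and 8.36 with selamectin, a log2 change of -0.49 ± 0.10 SE (limma adjusted p = 0.018), and lost its call without untreated array 1, untreated array 3, selamectin array 1 or selamectin array 2. Among those that did not pass, ITGB1, the common beta subunit of most laminin-binding integrins, stood at -0.25 (limma adjusted p = 0.12), DST, the hemidesmosomal plakin dystonin, at -0.38 (0.22), and COL7A1, the anchoring fibril collagen, at 0.32 (0.099). PLEC, which encodes plectin, stood at -0.13, and ITGA3, the alpha subunit of the other laminin-332 integrin, at -0.16. The median of the 9 was -0.16, with -0.06 without selamectin array 2, -0.105 without selamectin array 1 and -0.27 without selamectin array 3.

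**Figure D3:**
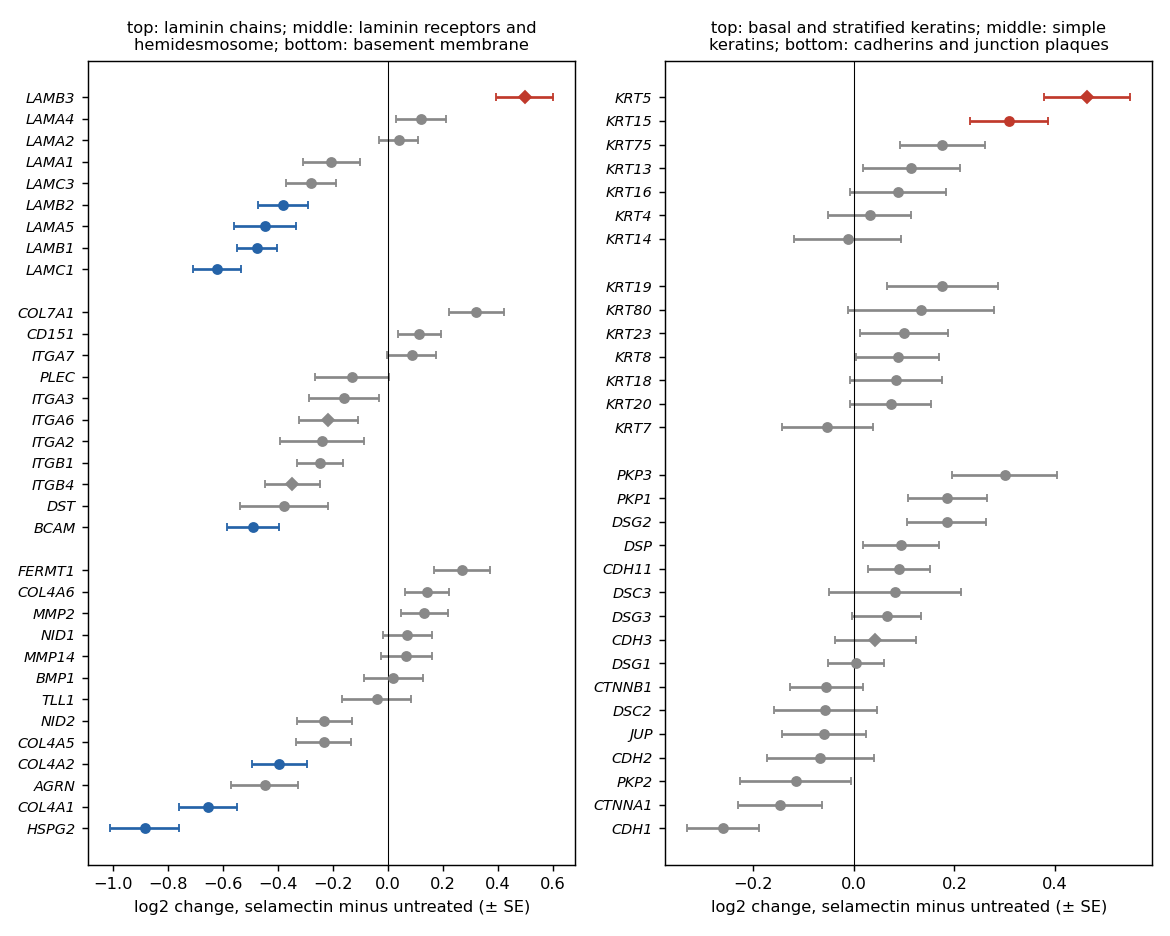
Log2 change, selamectin minus untreated, ± SE, of the genes in 6 lists (3 arrays per group). Colour marks genes with a limma adjusted p under 0.05, red for higher and blue for lower, grey points did not pass, and diamonds are the members. LAMB3 at 0.50 lies at the opposite end of its list from LAMC1 at -0.62, and KRT5 and KRT15 lead the basal keratins. LAMB3 and KRT5 were chosen with their rises known, so their places in these lists are a description only. The simple keratins and the cadherins and junction plaques hold no call.

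Of 6 basal and stratified keratins besides KRT5, 1 rose and none fell, where 2.41% and 2.28% of all genes did. The gene that rose was KRT15, a type I keratin of basal cells, with a log2 change of 0.31 ± 0.08 SE (limma adjusted p = 0.049). KRT15 read 5.88, 6.03 and 5.95 untreated and 6.18, 6.38 and 6.24 with selamectin, below the array medians throughout. Its call was lost without any one array. KRT14, the partner of KRT5, read 9.04, 9.12 and 9.07 untreated and 9.06, 8.89 and 9.25 with selamectin, a change of -0.01 with an overlap of the groups (limma adjusted p = 0.96). KRT14 and KRT16 are near-identical in sequence to each other and to KRT17, so their probes may be shared, and KRT16 stood at 0.09. The median of the 6 was 0.10, and 0.04 without untreated array 3. None of 7 simple epithelial keratins passed in limma, and 0 had an unadjusted p under 0.05, where 19.9% of all genes did. Their changes ran from -0.05 for KRT7 to 0.18 for KRT19, with KRT23 at 0.10, KRT8, the main type II keratin of simple epithelia, at 0.09 and KRT18, its partner, at 0.08.

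None of 15 cadherin, desmosome and plaque genes besides CDH3 passed in limma, and 4 had an unadjusted p under 0.05, where 4.69% and 19.9% of all genes did. CDH1, which encodes E-cadherin and lies next to CDH3, read 6.28, 6.20 and 6.34 untreated and 6.04, 5.97 and 6.03 with selamectin, a log2 change of -0.26 (limma adjusted p = 0.064). All its treated values were lower. PKP3, a desmosomal plaque protein, stood at 0.30 (limma adjusted p = 0.13). The desmosomal cadherins of basal keratinocytes, DSC3 and DSG3, stood at 0.08 and 0.07.

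Genes linked to p63 went both ways. Of 15 measured p63 family members, regulators and targets, MDM2 rose and FGFR2 and TFAP2A fell, where 2.41% and 2.28% of all genes did. The median change was -0.02, beside 0.04 for all genes. FGFR2, a fibroblast growth factor receptor, read 11.18, 10.87 and 11.07 untreated and 10.45, 10.34 and 10.13 with selamectin, a log2 change of -0.73 ± 0.11 SE (limma adjusted p = 0.0068), and passed whichever array was left out. TFAP2A, the transcription factor AP-2 alpha that acts at keratin promoters, read 12.66, 12.66 and 12.53 against 12.17, 12.13 and 12.23, a change of -0.44 ± 0.07 SE (limma adjusted p = 0.0097). TFAP2A lost its call without untreated array 1 or selamectin array 2. MDM2, a ubiquitin ligase of the p53 pathway, changed by 0.39 (limma adjusted p = 0.027) and passed only without selamectin array 3 among the left-out arrays. TP73, a relative of TP63, stood at 0.18 (limma adjusted p = 0.37), and SFN, which encodes 14-3-3 sigma, at 0.25 (0.12). PERP, a desmosomal p63 target, stood at 0.09 and ZNF750, a p63 target of differentiation, at -0.02.

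Among relatives of TRIM29, none of 10 other TRIM genes passed in limma, and 2 had an unadjusted p under 0.05, where 4.69% and 19.9% of all genes did. The 2 were TRIM14, another TRIM protein without a RING domain, at 0.28 (limma adjusted p = 0.11) and TRIM47 at 0.33 (0.13). TRIM16 and TRIM44, which also lack a RING domain, stood at -0.12 and 0.17. Of 8 reported TRIM29 partners or linked genes, 1 rose, CD44, the hyaluronan receptor, with a log2 change of 0.42 ± 0.08 SE (limma adjusted p = 0.020). CD44 kept its call only without untreated array 2 or selamectin array 3 among the left-out arrays. ATM, the DNA damage kinase, stood at -0.45 (limma adjusted p = 0.14) and KAT5, the acetyltransferase TIP60, at 0.11.

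The genes closest to TRIM29 in pattern were found by centring each gene on its untreated mean and taking the root mean square distance to TRIM29 over the 6 arrays, in log2 units. The nearest were LANCL2 at 0.11, CLN6 at 0.11, RPP40 at 0.15, HSPB8 at 0.15 and PRKAR1B, a regulatory subunit of protein kinase A, at 0.16. PRKAR1B read 8.79, 8.77 and 8.89 untreated and 9.52, 9.70 and 9.71 with selamectin. In TRIM29, CLN6, RPP40, HSPB8 and PRKAR1B alike, selamectin array 1 held the lowest treated value, as it did in LANCL2. The 5 genes were picked for closeness to TRIM29 on these same arrays, so this likeness largely follows from the choice. The distance is not scaled, so it favours genes whose change is similar in size to that of TRIM29. The other members were farther off, LAMB3 at 0.40, KRT5 at 0.42, CDH3 at 0.71, ITGA6 at 0.91 and ITGB4 at 0.99. In order of distance, LAMB3 was number 164 and KRT5 number 224 among all genes. Both were chosen with their rises on these arrays known, so these places largely follow from the choice.

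**Figure D4:**
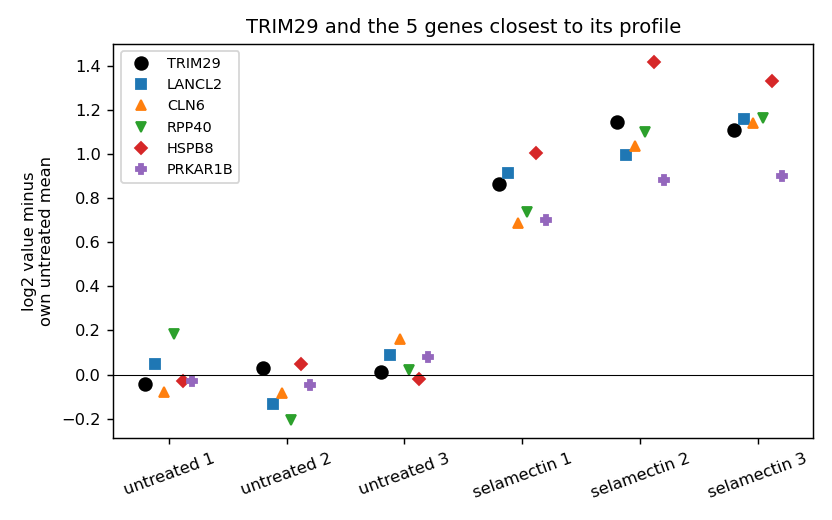
Log2 value minus the gene's own untreated mean on each of the 6 arrays, for TRIM29 (black) and the 5 genes nearest to it. All 6 genes sit near 0 on the untreated arrays and higher on every selamectin array, with selamectin array 1 the lowest of the treated arrays for each. The 5 were picked by their distance to TRIM29 on these arrays, so the likeness largely follows from the choice.

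Markers of basal cancers, contractile basal cells and other epithelial states were read beside the 4.69% of all genes that passed. Of 13 basal breast cancer markers, 1 rose, CD44, and the median change was 0.18, beside 0.04 for all genes. Of the 13 changes, 12 were positive and 1 was negative. The negative one was that of EGFR, the epidermal growth factor receptor often abundant in basal cancers, at -0.32 (limma adjusted p = 0.053). The share of all genes with a positive change was not computed, so the count of signs is a description. On other lists, 10 of 14 keratinocyte differentiation genes, 7 of 10 leukocyte and endothelial genes and 2 of 8 laminin chains were positive. SNAI2, the basal transcription factor SLUG, stood at 0.36 (limma adjusted p = 0.30). Of 11 myoepithelial contractile genes, ACTG2, the smooth muscle gamma actin, rose by 1.79 log2 units (limma adjusted p = 0.0039) and MYLK, the myosin light chain kinase, fell by 0.67 log2 units (0.0050). Both passed whichever array was left out, but actin probes can be shared within the family. Of 15 luminal markers, 1 rose, the mucin MUC1, by 0.84 log2 units (limma adjusted p = 0.0040). None of 14 markers of keratinocyte differentiation passed in limma, and 1 had an unadjusted p under 0.05, where 19.9% of all genes did. The smallest p-values were those of KRT10, a suprabasal keratin, at 0.36 (limma adjusted p = 0.095) and SPRR1B, a cornified envelope protein, and involucrin, IVL, stood at -0.08.

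The genes on either side of the members were also read, a comparison chosen after the values were seen. Of the 24 nearest measured neighbours, 4 per member in RefSeq order, 2 rose and none fell, where 2.41% and 2.28% of all genes did. Both lie next to ITGA6 on chromosome 2: DLX2, a homeobox factor, with a log2 change of 0.68 (limma adjusted p = 0.011), and DLX1 with 0.41 (0.031). Next to CDH3 on chromosome 16, ZFP90, CDH1 and TANGO6 stood at -0.34, -0.26 and -0.26 without passing, each with all treated values below all untreated values, as in 9.30% of all genes. Neighbours of TRIM29 on chromosome 11 did not pass: NECTIN1 stood at 0.16 and OAF at 0.05. Around KRT5 on chromosome 12, the keratins KRT75, KRT74, KRT84 and KRT71 stood at 0.18, 0.17, 0.10 and 0.06. Around LAMB3 on chromosome 1, G0S2 stood at 0.05 and HSD11B1 at 0.01.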

How the data were processed

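The values were deposited as a table of log2 expression values, 1 per transcript cluster and array; the log base is read from their range, since the table states none. RMA is listed in the submitters' processing notes, beside the Transcriptome Analysis Console and Affymetrix Expression Console, without version or settings; genome build and annotation are not given in the sources used here. RMA as usually run quantile-normalizes arrays together, which removes a shift of all genes. Changes of dim genes also tend to be compressed in RMA values. Names came from GEO's platform annotation, with 19460 clusters of 1 symbol, 1754 of several and 12083 of none; the cluster with the highest mean stood for a gene. Promoter windows are RefSeq's, build GRCh38.p14.

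Selamectin and untreated arrays were compared by limma 3.58.1 under R 4.3.3 (lmFit, eBayes with an intensity trend, no replicate block), selamectin minus untreated, two-sided, at a threshold of 0.05 on p-values adjusted by Benjamini-Hochberg across the 18417 genes. The fit was tested on simulated data. "Not overlapping" means that all 3 arrays of one group exceed all 3 of the other. The number of arrays limits the precision.

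The members and the 17 gene lists were chosen with earlier results of these data known. Named genes are the members, list genes past the threshold (or the 2 with the smallest p), and the 5 nearest to TRIM29; other list genes that are named for their role, and all neighbours, were chosen after their values were seen. Alternatives were other normalizations, array weights, a filter on dim genes, averaged clusters, other eBayes settings, all clusters, a replicate block, other thresholds and leaving out each array.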

Additional observations from a re-analysis of the deposited data

How the results depend on the processing

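TRIM29 kept its direction and its call in all 9 settings with all arrays and in all 6 with 1 array left out; its log2 change ran from 0.99 to 1.13 with 1 array left out. The count of members called was 3, with 5 under array weights (3 higher, 2 lower), 1 with all transcript clusters, 1 at an adjusted p of 0.01, 4 at 0.10 (ITGB4 added as lower), and from 1 to 3 with 1 array left out, 1 being the value without untreated array 1. Of all genes tested, 864 were called, with 3286 under array weights, 173 at an adjusted p of 0.01, 1602 at 0.10, and from 176 to 1149 with 1 array left out. The count was 176 without untreated array 1, 254 without untreated array 3 and 234 without selamectin array 2. With all 33297 transcript clusters in the fit, 249 were called, a count of clusters and not of genes. Of 161 listed genes outside the members, 16 were called (5 higher, 11 lower), with 42 under array weights, 9 with all clusters, 9 at an adjusted p of 0.01, 26 at 0.10, and from 8 to 18 with 1 array left out: 8 without untreated array 1 or selamectin array 2 and 9 on leaving out selamectin array 1 or untreated array 3. Array weights rest on untreated array 3, with a weight of 5.11. The cause of the other shifts was not tested. No called change of a named gene reversed its sign under any alternative run. Among the other named genes, 509 values kept their side of the threshold, 58 lost a call and 11 gained one.

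The arrays share replicate numbers, but nothing in the labels pairs them. Deviations from the group means of same-numbered arrays correlated across genes at -0.01, 0.24 and -0.14 for numbers 1, 2 and 3, and 1 of 3 untreated arrays correlated best with its own number. With a replicate block 650 genes, 3 members and 15 listed genes were called, and TRIM29 changed by 1.04; of the named genes, LAMB2 (limma adjusted p = 0.068) and COL4A2 (0.069) lost their calls. CDH3 and some other dim genes have no value under the filter on dim genes. Without detection calls, signal over background is unknown for these genes.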
